A study of Mus musculus with 12 samples.

Results

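The 962 probes described here detect ultraconserved elements and were picked by their identifiers on the array, which begin with the letters uc and a dot. They made up 962 of the 37246 probes used, beside 22522 probes for mRNAs and 13762 for other non-coding transcripts. They cover 481 elements, each with 1 probe per strand, marked + or - after the element's number, and each probe had 1 spot. The choice by identifier used no measured value, though the set was taken up with earlier results of these data known. Probe sequences, the genome position of each element and the genome strand that + stands for are not given in the sources used here, so neither sequences nor coordinates are printed.

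Ultraconserved elements are stretches of genome that are identical in human, mouse and rat. Some overlap exons of genes for RNA-binding and splicing proteins, where they can cover an alternative exon that carries a premature stop. Others lie in introns or far from any gene, beside genes for developmental transcription factors, and a number of these act as enhancers. RNA from one strand or the other of some elements can be detected in tissues, and these transcripts are called transcribed ultraconserved regions.

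RNA came from C2C12, an immortal line of mouse myoblasts that leaves the cell cycle and fuses into myotubes when serum is lowered. Proliferating cells were grown in medium with 10% fetal bovine serum up to 80 to 90% confluence. The other groups were then switched to 2% horse serum and harvested after 2, 5 or 8 days. Each stage had 3 arrays from experiments that the labels call independent, 12 one-colour arrays in all, each labelled from 1 µg of total RNA. All groups are 1 cell line, so the spread behind each p-value is that between arrays of this line.

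Signals are given as a percentage of the 75th percentile of the same array, which lay between 1295 and 1993 scanner units, and no spot was saturated. The 12 arrays lay on 3 slides of 4. Slide 1 held the 3 proliferation arrays and day 2 array 1, slide 2 held day 2 arrays 2 and 3 and day 5 arrays 1 and 2, and slide 3 held day 5 array 3 and the 3 day 8 arrays. Stage and slide are therefore partly aligned, and the counts of each comparison are given also with the slide as a term in the fit. All 9 myoblast and muscle markers were well above background on all 3 arrays of each later stage, and 8 of 9 were so in proliferation. Their summed signal was 13362.5% to 17590.7% in proliferation, 61175.2% to 68319.3% at day 5 and 38101.7% to 50456% at day 8. The neural list, 8 genes of which 6 were above background on all 3 arrays at every stage, summed to 4700.8% to 5751.8% in proliferation and 1686.8% to 1839% at day 8. The other lists had smaller sums: macrophage markers, 2 of 5 above background, 8.86% to 17.8% and 17.3% to 22.9%, adipocyte markers, 1 of 4, 386.6% to 504.8% and 144.4% to 160.6%, endothelial markers, 3 then 1 of 4, 21.3% to 29.4% and 48% to 61.9%, and osteoblast markers, 4 of 6, 863.2% to 1093.2% and 707.1% to 1048.1%, in proliferation and at day 8. The part of these in the results below was not tested.

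Ultraconserved element probes seldom gave a signal well above background, the scanner software's flag for a spot clearly brighter than its surroundings, on every array. Of the 962 probes, 461 (47.9%) carried the flag on no array, against 19.8% of all probes, 27.4% of other non-coding probes and 13.9% of mRNA probes. Only 104 (10.8%) carried it on all 12 arrays, against 51.6% of all probes. Per stage, the flag was present on all 3 arrays for 120 probes in proliferation, 147 at day 2, 121 at day 5 and 133 at day 8. A probe without the flag may still detect a transcript below the array's reach, so absence of transcription cannot be read from it.

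Detection differed between slides. Slide 2 had the flag on 245 to 292 of the 962 probes (25.5% to 30.4%), slide 1 on 167 to 230 (17.4% to 23.9%) and slide 3 on 132 to 184 (13.7% to 19.1%). Within day 5, arrays 1 and 2 on slide 2 had 292 and 287 flagged probes and array 3 on slide 3 had 132. All probes together moved the same way by less, from 66.4% to 69.2% on slide 2 against 56.6% to 63% on slide 3. On 3 arrays many members shared the lowest signal of the array: 606 on proliferation array 1, 431 on day 5 array 1 and 657 on day 5 array 3.

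**Figure D1:**
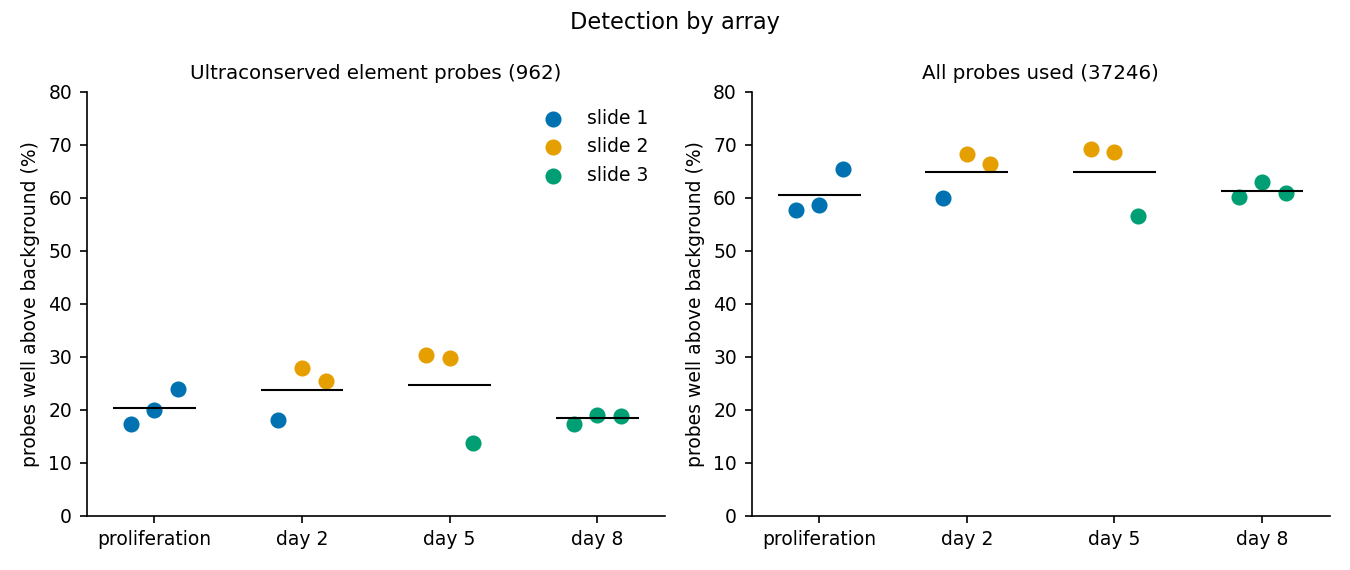
Percentage of probes well above background on each of the 12 arrays, by stage (horizontal axis) and slide (colour), for the 962 ultraconserved element probes (left) and for all 37246 probes (right); lines are stage means of 3 arrays. Day 5 array 3, on slide 3, stands at 13.7% of ultraconserved element probes, and the other day 5 arrays, on slide 2, at 29.8% and 30.4%.

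The test was limited to probes that carried the flag on every array of 1 stage or more. That held for 158 of the 962 probes (16.4%), against 61.6% of all probes and 47.5% of other non-coding probes. Of these, 104 passed through all 4 stages and 19 through 1 stage only, namely 13 through day 2, 5 through day 8 and 1 through day 5. Of the 804 others, 461 were above background on no array, 292 on 1 to 4 arrays and 51 on 5 to 8. The tested probes were mostly dim: their median signal was 4.53% of the 75th percentile in proliferation, 4.51% at day 2, 4.21% at day 5 and 2.84% at day 8. In proliferation 83 of the 158 lay under 5% and 19 over 100%. Because a probe that passed through its bright stage alone is bound to look changed, counts over the 158 describe them and support nothing further. In RNA from whole cultures, fewer cells with a transcript and less of it per cell cannot be told apart.

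Across the 4 stages, limma's F test called 80 of the 158 probes at an adjusted p under 0.05 (50.6%), against 65.8% of all tested probes. With the slide in the fit it called 34 (21.5%), against 31.4%. In comparisons with proliferation, 82 of the 158 were called at least once, against 68.3% of all tested probes, and 76 never. With the slide 36 were called at least once, against 30.4%.

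At day 2, 35 of 158 probes (22.2%) differed from proliferation, 9 higher and 26 lower. Of all tested probes, 30.6% were called, 18.3% higher and 12.2% lower. The median log2 change of the 158 was -0.01, against 0.07 over all tested probes. The split between higher and lower moved with the processing. With normexp correction of the raw signals, a method that models the background instead of using the software's own subtraction and was run here on median signals with an added offset, it was 34 higher and 15 lower, where 25.4% and 9.51% of all tested probes were called, and with quantile normalization 22 and 26 (18.5% and 13.8% of all). Normexp moved the median of all tested probes to 0.20. How far the added offset moved the changes of dim probes was not tested. With the slide in the fit, 5 were higher and 13 lower (9.56% and 5.77% of all), and 15 probes were called the same way in both fits, 4 higher and 11 lower. How many of all tested probes were called the same way in both fits was not counted, here or in the comparisons below. Single arrays moved the count of rises. There were 19 without day 5 array 3 (19.4% of all tested probes) and 4 without proliferation array 3 (17.6%). Without day 2 array 1 or array 2 there were 5 (14.8% and 13.7%).

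The falls at day 2 that were called in both fits included some of the brightest members. The probe uc.471+ stood at 345.3%, 341.3% and 330.7% on the proliferation arrays, 109.9%, 102.4% and 173.6% at day 2, 219.6%, 213.5% and 293.9% at day 5 and 341.1%, 405.1% and 301.7% at day 8. All day 2 arrays lay below every proliferation array, and the day 8 arrays surrounded the proliferation arrays again. Its log2 change was -1.44 ± 0.21 (SE, limma, 3 arrays per stage, adjusted p = 0.000767) at day 2 and 0.03 ± 0.21 (adjusted p = 0.907) at day 8. With the slide in the fit the day 2 change was -1.63 (adjusted p = 0.00712).

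The probe uc.481+ had the same course: 74.2%, 75.3% and 61.2% in proliferation, 24%, 20.5% and 33.3% at day 2, 36.3%, 47.3% and 46.8% at day 5, and 75.3%, 78.9% and 70.2% at day 8. It was low on all 3 day 2 arrays and back among the proliferation values at day 8. The day 2 change was -1.46 ± 0.19 (limma, adjusted p = 0.000351; -1.54 with the slide). Between day 5 and day 8 it rose by 0.79 ± 0.19 (limma, adjusted p = 0.0235), a call lost with the slide in the fit (adjusted p = 0.227) and on omission of array 1 of day 5 or of any day 8 array (adjusted p = 0.0532 to 0.0946).

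The probe uc.456+ stayed low for longer. It measured 12.5%, 12.7% and 10.9% in proliferation, 4.07%, 5.39% and 4.42% at day 2, 4.89%, 4.77% and 3.32% at day 5, and 12.3%, 18.2% and 9.85% at day 8. All arrays of day 2 and day 5 were below all of proliferation and day 8. Its changes were -1.38 ± 0.23 at day 2 (limma, adjusted p = 0.00167) and -1.49 ± 0.23 at day 5 (adjusted p = 0.000342), and it rose by 1.61 ± 0.23 from day 5 to day 8 (adjusted p = 0.00267). All 3 calls stood with the slide in the fit, at -1.56, -1.57 and 1.97.

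Other large falls at day 2 were uc.129+ (-1.86 ± 0.35), uc.366- (-1.62 ± 0.32), uc.37+ (-1.56 ± 0.46), uc.34+ (-1.40 ± 0.25) and uc.33+ (-1.36 ± 0.27). Of these, uc.129+ and uc.34+ kept the call with the slide (-1.74 and -0.69, adjusted p = 0.0394 and 0.0424, limma). With normexp only uc.129+ kept it (-1.21). There uc.34+ stood at -0.10 (adjusted p = 0.622), uc.37+ at -0.04 (0.851), uc.33+ at -0.43 (0.107) and uc.366- at -0.55 (0.0502). The call of uc.37+ needed array 1 of proliferation (adjusted p = 0.099 when omitted) and array 2 of day 2 (0.0767). The probes uc.154+ (-0.80 ± 0.17) and uc.193- (-1.16 ± 0.20), which were picked after their values were seen, were called lower at day 2 under all 6 settings that kept the same tested probes: as reported, normexp, quantile, the percentile taken over probes detected on all arrays, the slide and the replicate number. For uc.154+ the proliferation arrays stood at 1683.1%, 1328.2% and 1193.6% and the day 2 arrays at 742%, 726.2% and 928.8%.

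Of the 26 probes lower at day 2, 11 were lower at day 8 as well, 12 had no call there and 3 were higher. The same split over all tested probes was not counted. Those 3, uc.101-, uc.174+ and uc.184+, were the only members called in opposite directions at different stages against proliferation, and were singled out for that after their values were seen. The probe uc.184+ measured 15.8%, 12.8% and 12.3% in proliferation, 8.12%, 7.13% and 7.23% at day 2, 10.8%, 17.3% and 11.9% at day 5 and 17.7%, 26% and 18.3% at day 8. Every day 2 array was below, and every day 8 array above, the proliferation arrays. Its log2 changes were -0.86 ± 0.21 at day 2 and 0.59 ± 0.21 at day 8 (limma, adjusted p = 0.011 and 0.0331), and neither call stood with the slide in the fit (adjusted p = 0.134 and 0.238), whereas the rise from day 2 to day 5 did (0.80 without and 0.93 with the slide, adjusted p = 0.0132 and 0.0348). For uc.174+ the changes were -0.60 and 0.54, and for uc.101- they were -0.52 and 0.45, with no call at day 2 or day 8 once the slide was in the fit.

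Rises at day 2 were fewer. The largest among called members was uc.477-, at 0.313%, 0.555% and 0.371% in proliferation, where no array was above background, and 1.09%, 1.39% and 1.30% at day 2. It entered the test through day 2 alone, the stage where it was bright, so its call carries no weight of its own. The fitted log2 change was 1.64 ± 0.48 (limma, adjusted p = 0.0245), and since the proliferation side was not measured the rise was at least 1.24-fold. For such a bound, the bright stage's mean is divided by the lowest signal well above background on each array of the dim stage, or the probe's own where that is higher. It was no longer called on omission of array 1 or 3 of proliferation, or of array 2 or 3 of day 2 (adjusted p = 0.0578 to 0.0836).

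The other rises at day 2 were uc.421+ (1.02 ± 0.15), uc.155- (1.00 ± 0.28), uc.455+ (0.72 ± 0.21), uc.436- (0.69 ± 0.23), uc.246- (0.63 ± 0.20), uc.75+ (0.63 ± 0.13), uc.414+ (0.59 ± 0.13) and uc.45+ (0.58 ± 0.18). Only uc.421+, uc.155-, uc.414+ and uc.477- were also called with the slide in the fit. Single arrays decided several of these calls. Omission of array 1 of proliferation, or of array 1 or 2 of day 2, ended the call of uc.155- (limma, adjusted p = 0.0568 to 0.0682). For uc.455+ the deciding arrays were 2 and 3 of proliferation and 1 and 2 of day 2 (0.0526 to 0.078). For uc.246- they were 1 and 3 of proliferation and all of day 2 (0.0505 to 0.115). For uc.436- they were 2 and 3 of proliferation, all of day 2, 1 and 2 of day 5 and 2 of day 8 (0.0551 to 0.155).

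At day 5, 43 of 158 probes (27.2%) differed from proliferation, 12 higher and 31 lower. Of all tested probes, 47.5% were called, 23.7% higher and 23.8% lower. The medians were -0.13 for the 158 and -0.02 for all. Here too the split turned with the processing: 39 higher and 21 lower with normexp (27% and 18.1% of all tested probes), 33 and 28 with quantile normalization (26.1% and 23.4%), and 10 and 9 with the slide in the fit, where 22.7% of all tested probes were called (12.4% and 10.3%). Without day 5 array 3, the array of that stage on slide 3, 35 were higher and 26 lower, against 24% and 21% of all tested probes. In both the plain fit and the fit with the slide, 14 probes were called the same way, 8 higher and 6 lower.

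The largest change among called members at day 5 was the rise of uc.421+. This probe stood at 17.8%, 18.2% and 16.8% in proliferation, 34.4%, 42.2% and 31.3% at day 2, 85.9%, 106.4% and 93.1% at day 5 and 65.5%, 54.1% and 67.1% at day 8. The 4 groups did not overlap, with the order proliferation, day 2, day 8, day 5. Its log2 change was 2.43 ± 0.15 at day 5 (limma, adjusted p = 3.73e-07) and 1.82 ± 0.15 at day 8 (adjusted p = 2.54e-06), with 2.37 and 1.78 when the slide was in the fit (adjusted p = 0.000789 and 0.0137). The fall from day 5 to day 8, -0.61 ± 0.15 (adjusted p = 0.0262), was not called with the slide (adjusted p = 0.202).

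Both strands of uc.188 rose. The bright probe uc.188- measured 278.1%, 213.4% and 205.6% in proliferation, 188.3%, 175.5% and 153.6% at day 2, 417.6%, 398% and 431.4% at day 5 and 579.3%, 459.1% and 457.3% at day 8. The probe uc.188+ measured 4.59%, 4.46% and 5.32%, then 6.11%, 5.47% and 4.69%, then 13.2%, 13.4% and 8.25%, and finally 9.20%, 8.67% and 10.1%. For both probes every day 5 and day 8 array lay above every array of proliferation and day 2.

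At day 5 the changes were 0.85 ± 0.16 for uc.188- and 1.25 ± 0.19 for uc.188+ (limma, adjusted p = 0.00104 and 0.000334), and both were called with the slide in the fit (1.02 and 1.75). At day 8 they were 1.11 ± 0.16 and 0.96 ± 0.19 (adjusted p = 0.000148 and 0.00166). With the slide the day 8 rise of uc.188+ was 1.93 (adjusted p = 0.00371) and that of uc.188- was 1.22 without a call (adjusted p = 0.0606). The step from day 2 to day 5 was called in both fits for both strands, at 1.27 ± 0.16 for uc.188- and 1.07 ± 0.19 for uc.188+ (adjusted p = 0.000114 and 0.0016).

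The probe uc.246- also rose at all 3 later stages, from 15.8%, 22.1% and 18.8% in proliferation to 26.7%, 33% and 27.6% at day 2, 41.2%, 65% and 40.9% at day 5 and 49.1%, 51.8% and 47.8% at day 8. The stages did not overlap except day 5 with day 8. Its change was 1.35 ± 0.20 at day 5 and 1.40 ± 0.20 at day 8 (limma, adjusted p = 0.000208 and 0.000138), called with the slide as well (1.29 and 1.56, adjusted p = 0.0346 and 0.0473). Besides uc.421+ and uc.246-, only uc.75+ was called higher at all 3 later stages, by 0.63, 0.86 and 0.62, with the day 5 call alone standing in the slide fit (0.88, adjusted p = 0.0394). Of all tested probes, 11.5% were called higher at all 3 stages.

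The remaining named rises at day 5 were uc.265+ (1.54 ± 0.35), uc.455+ (1.28 ± 0.21) and uc.155- (1.04 ± 0.28). Of these, uc.455+ and uc.155- were called with the slide too, at 1.67 and 1.56. The probe uc.265+ had the largest rise among members called at day 8, 1.93 ± 0.35 (limma, adjusted p = 0.000831), from 2.51%, 5.43% and 6.16% in proliferation to 14.5%, 20% and 15.9%, with no overlap. That call did not stand with the slide in the fit (1.69, adjusted p = 0.231).

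The 8 largest falls among members called at day 5 were uc.239+ (-1.99 ± 0.42), uc.129+ (-1.79 ± 0.35), uc.432+ (-1.60 ± 0.36), uc.456+ (-1.49 ± 0.23), uc.10- (-1.35 ± 0.47), uc.33+ (-1.35 ± 0.27), uc.34+ (-1.29 ± 0.25) and uc.465- (-1.28 ± 0.21). Only uc.456+ was called with the slide in the fit. With normexp uc.239+ (-0.10), uc.10- (-0.80) and uc.34+ (-0.18) were not called. The call of uc.10- ended on omission of array 1 or 3 of proliferation, or of array 3 of day 5 (limma, adjusted p = 0.0995 to 0.123). Called lower at day 5 in both fits were also the bright probes uc.46- and uc.45-, picked after their values were seen. The probe uc.46- went from 3349.5%, 3476.5% and 3110.1% in proliferation to 1810.5%, 1947.6% and 1902.4% at day 5 without overlap, a change of -0.81 ± 0.14 (adjusted p = 0.000631) and of -1.24 with the slide (adjusted p = 0.00421). The probe uc.45- went from 1700.7%, 1572.2% and 1565.3% to 837.3%, 760.6% and 1069.8%, also without overlap, a change of -0.87 ± 0.15 (adjusted p = 0.000562; -1.12 with the slide).

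At day 8, 62 of 158 probes (39.2%) differed from proliferation, 16 higher and 46 lower. Of all tested probes, 54.8% were called, 25.4% higher and 29.4% lower. The median change of the 158 was -0.46, against -0.11 over all tested probes.  Of the 158, 10.1% were higher and 29.1% lower, so the share of falls was near that of all tested probes. The split between higher and lower moved with the processing. With normexp 38 were higher and 18 lower (30.9% and 20% of all tested probes). There were 22 and 28 with quantile normalization (28.9% and 25.6%), and 9 and 5 with the slide in the fit (9.7% and 7.6%). The medians of the 158 were then 0.20, -0.16 and 0.12, against 0.15, 0.02 and 0.02 over all tested probes. Without proliferation array 2, 9 were higher and 35 lower, against 22.9% and 25.9% of all tested probes. Over all tested probes, the share called fell from 54.8% to 17.3% with the slide. Of the 62 member calls, 6 stood with the slide: uc.421+, uc.246-, uc.188+ and uc.169- higher and uc.465- and uc.45- lower. Of these, uc.169- entered the test through day 8 alone, so its rise carries no weight of its own.

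**Figure D2:**
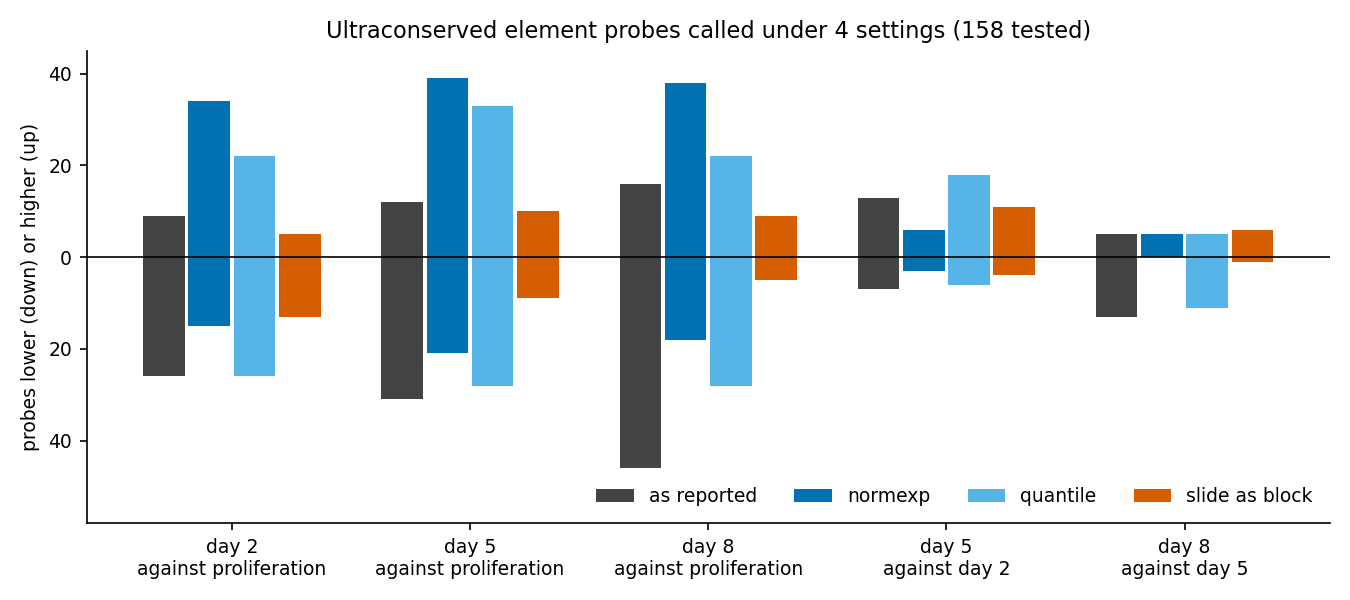
Number of the 158 tested ultraconserved element probes called higher (bars up) or lower (bars down) at an adjusted p under 0.05 in each of 5 comparisons, under 4 settings. At day 8 against proliferation the reported setting gives 16 higher and 46 lower, normexp 38 and 18, quantile normalization 22 and 28, and the slide as a block 9 and 5.

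The arrays of day 5 lie on both slide 2 and slide 3. Slide 3 holds 1 of them, so its slide and its sample cannot be told apart. On day 5 array 3, on slide 3, the 158 probes read lower than on the 2 day 5 arrays of slide 2 by a median of -0.44 log2, with an interquartile range from -1.23 to -0.12, and 130 of 158 were lower. Over all tested probes the median was -0.06, with a range from -0.35 to 0.14. Of the 46 probes called lower at day 8, 39 also read lower on slide 3 at day 5, beside the 130 of all 158. The median change of the 46 was -1.27 without and -0.56 with the slide in the fit, and 37 kept their sign. Of the 16 called higher, 12 also read lower on slide 3 at day 5. Their medians were 0.74 and 1.09, and all 16 kept their sign. Within single slides, the median difference of the 158 was -0.14 for day 2 against proliferation on slide 1, 0.09 for day 5 against day 2 on slide 2 and 0.16 for day 8 against day 5 on slide 3, against 0.05, -0.02 and 0.01 over all tested probes. No slide held both proliferation and day 5 or day 8 arrays, so the value with the slide for day 8 joins these 3 steps. It is less precise: the SE of the day 8 change was 0.39 with and 0.15 without the slide for uc.421+. For uc.465- it was 0.46 and 0.21. A call lost with the slide does not show that a probe did not change.

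**Figure D3:**
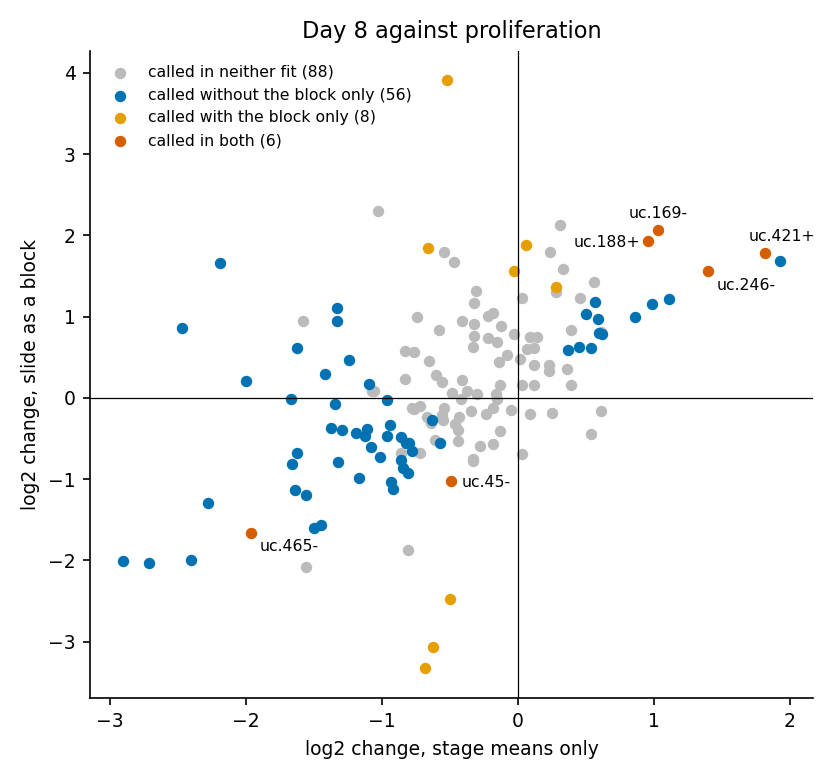
Log2 change at day 8 against proliferation for the 158 tested probes, with stage means only (horizontal axis) and with the slide added to the fit (vertical axis); colours mark which fit called the probe. The 6 probes called in both fits are named, and many probes left of 0 lie near or above 0 on the vertical axis.

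The largest fall at day 8 that was called in both fits was that of uc.465-. It measured 1004.8%, 1049.4% and 1346.5% in proliferation, 890.1%, 673.4% and 611% at day 2, 513%, 386.2% and 503.4% at day 5 and 301.9%, 232% and 346.6% at day 8. Each stage lay wholly below the one before. The changes were -0.65 ± 0.21, -1.28 ± 0.21 and -1.96 ± 0.21 at days 2, 5 and 8 (limma, adjusted p = 0.036, 0.000456 and 1.74e-05). With the slide in the fit only the day 8 fall was called (-1.66, adjusted p = 0.0376).

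Larger falls among members called at day 8 were not called with the slide in the fit. The largest was uc.10-, which stood at 27.7%, 10.8% and 23.6% in proliferation, 14.4%, 25.9% and 20% at day 2, 10.7%, 10.8% and 3.66% at day 5 and 1.91%, 3.57% and 2.46% at day 8. Day 8 lay below all other arrays, and at day 5 the array on slide 3 was the low one. Its change was -2.90 ± 0.47 (limma, adjusted p = 0.000403), and -2.01 with the slide (adjusted p = 0.134). The next were uc.239+ (-2.71 ± 0.42), uc.271+ (-2.47 ± 0.65), uc.371- (-2.40 ± 0.48), uc.432+ (-2.28 ± 0.36), uc.47- (-2.19 ± 0.79) and uc.340- (-2.0 ± 0.61). No day 8 array was above background for uc.239+ and uc.47-, so their falls were at least 4.28-fold and at least 2.32-fold.

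Of these falls, 3 changed sign with the slide in the fit: uc.271+ to 0.86 ± 0.74, uc.47- to 1.66 ± 1.06 and uc.340- to 0.21 ± 1.13. None of the 3 was called there (limma, adjusted p = 0.482, 0.334 and 0.926). The bright probe uc.340- is one of them. It measured 556%, 470.5% and 374.6% in proliferation, 364.5%, 713.7% and 154.6% at day 2, 417%, 558.1% and 114.4% at day 5 and 145.2%, 83.9% and 126.3% at day 8. All 4 arrays of slide 3, day 5 array 3 among them, lay at 145.2% or lower, and every other array above that. The lowest of the others, day 2 array 3 on slide 2, was close at 154.6%, and the next stood at 364.5%. With normexp, uc.239+ and uc.47- also changed sign, to 0.03 and 0.26, without a call (limma, adjusted p = 0.89 and 0.227). The call of uc.340- needed array 1 of proliferation and array 2 of day 8 (limma, adjusted p = 0.0533 and 0.0624 when omitted), and that of uc.47- needed 2 and 3 of proliferation and 2 of day 8 (0.0858 to 0.138).

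The smaller named rises at day 8 were uc.169- (1.03 ± 0.35), uc.313- (0.99 ± 0.33) and uc.436- (0.86 ± 0.23). The probe uc.169- was near background, at 0.472%, 0.596% and 0.783% in proliferation and 1.40%, 1.11% and 1.20% at day 8. It was above background on 8 of 12 arrays, with all 3 of a stage at day 8 alone. It entered the test through that stage, where it was bright, so its call carries no weight of its own. Its call stood with the slide (2.06, adjusted p = 0.0181, limma) and ended on omission of array 1 or 2 of proliferation or of any day 8 array (0.0504 to 0.0994). The call of uc.313- needed array 2 of proliferation and arrays 2 and 3 of day 8 (0.0518 to 0.0768).

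In all, 10 members were called lower at all 3 later stages, against 6.91% of all tested probes, and 1 with the slide in the fit, against 1.98%. The 10 were uc.432+, uc.465-, uc.129+, uc.418-, uc.48-, uc.366-, uc.50-, uc.141-, uc.419- and uc.45-. All 10 were above background on all 12 arrays. The last of them is bright: uc.45- stood at 1126.4%, 1079.5% and 1242.1% at day 8, below its proliferation arrays, a change of -0.49 ± 0.15 (limma, adjusted p = 0.0153; -1.02 with the slide, adjusted p = 0.0494). The probe uc.141- is another bright one, at 2067.9%, 2323.8% and 1803.5% in proliferation and between 969.5% and 1435% on the later arrays, with no overlap. Its changes were -0.76, -0.83 and -0.80 (each SE 0.18), none called with the slide. For uc.48- the changes were -1.06 ± 0.23, -1.18 ± 0.23 and -1.32 ± 0.23, with the first 2 called in the slide fit (-1.22 and -1.16). For uc.50- they were -0.60, -0.93 and -0.93, with no call in the slide fit. With normexp the day 8 changes of uc.48- (-0.21) and uc.366- (-0.23) were not called. The day 8 call of uc.366- (-0.96 ± 0.32) needed arrays 1 and 2 of proliferation and 1 and 3 of day 8 (adjusted p = 0.0529 to 0.107 when each was omitted).

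**Figure D4:**
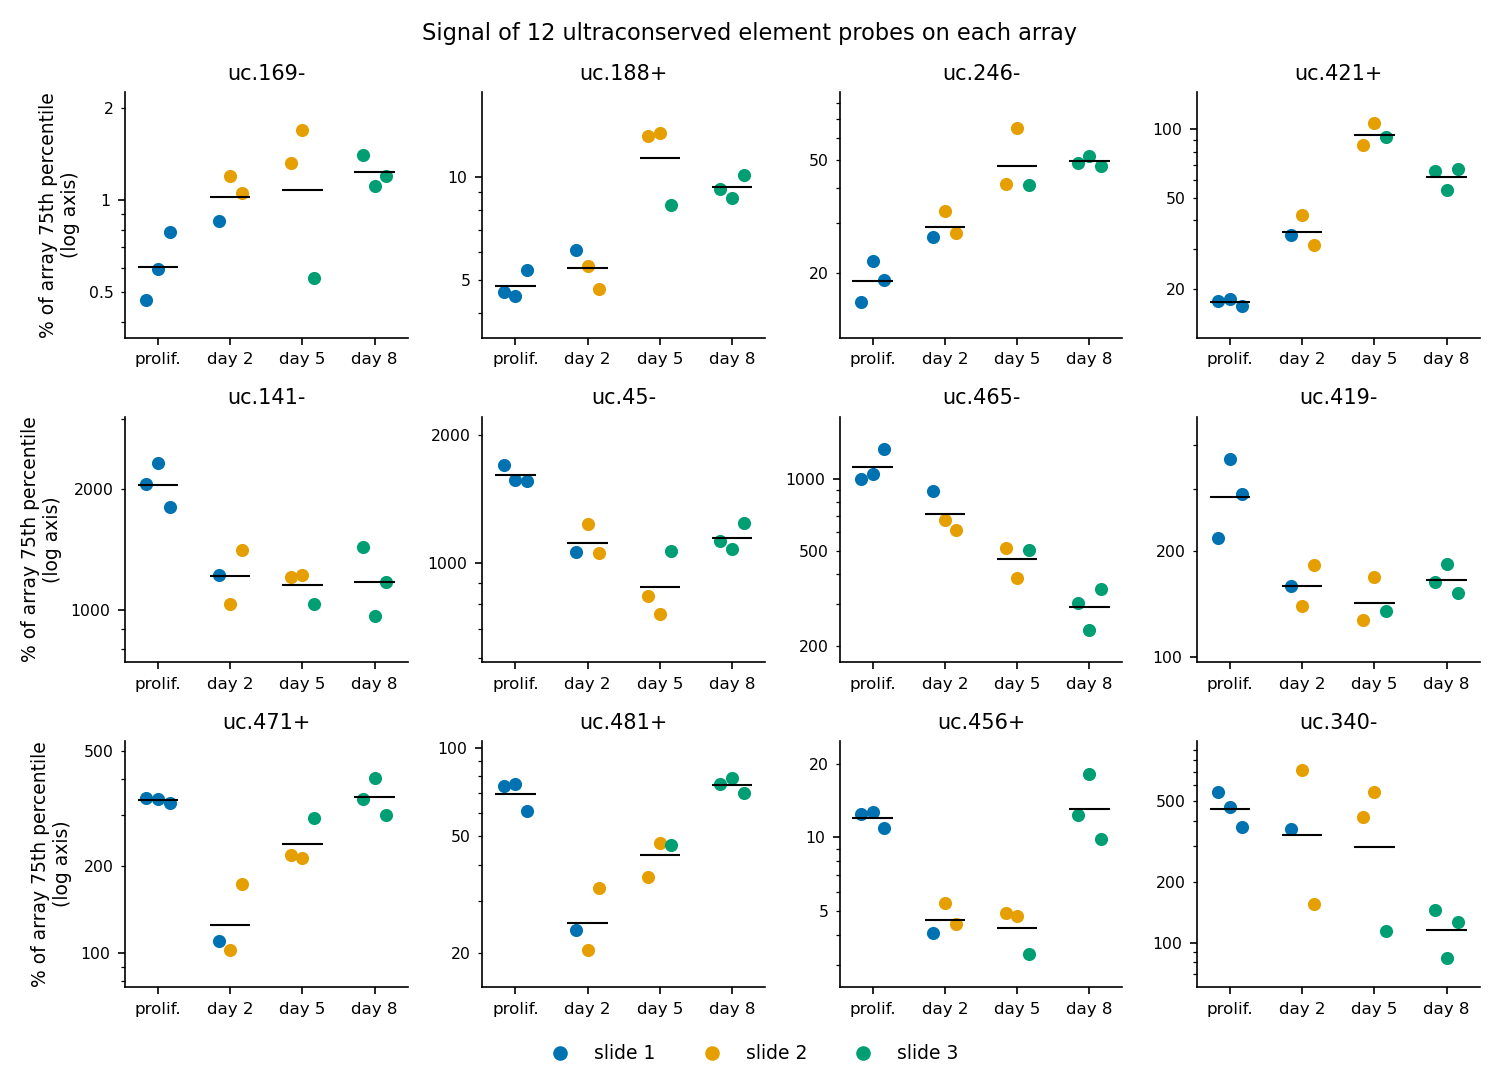
Signal of 12 ultraconserved element probes on each of the 12 arrays, as a percentage of the array's 75th percentile on a log axis whose range differs between panels; colours give the slide and lines the stage means. The upper row holds the 4 probes called higher at day 8 under the 6 settings that used all arrays and the same tested probes, with uc.421+ going from 16.8% to 18.2% in proliferation up to 85.9% to 106.4% at day 5. The middle row holds the 4 brightest of those lower at all 3 later stages. The lower row holds 3 probes low at day 2 and back at day 8 beside uc.340-, which is low on all arrays of slide 3 and on day 2 array 3.

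Between day 2 and day 5, 20 of 158 probes (12.7%) differed, 13 higher and 7 lower. Of all tested probes, 30.1% were called, 14.4% higher and 15.7% lower. With the slide in the fit, 11 were higher and 4 lower (10.6% and 11.5% of all), and with normexp 6 and 3 (10.1% and 11.7%). The falls numbered 12 without day 5 array 2, where 14.6% of all tested probes fell. They numbered 4 without day 2 array 3, day 5 array 3 or day 8 array 1 (13.1%, 13.1% and 15% of all). In all, 12 probes were called the same way in the plain and the slide fit, 10 of them higher. The largest rise among called members was uc.174-, from 0.301%, 0.298% and 0.256% at day 2, where no array was above background, to 0.822%, 0.790% and 1.03% at day 5. It was at least 1.48-fold (fitted log2 change 1.62 ± 0.19, limma, adjusted p = 7.25e-05; 1.54 with the slide), and the call ended with normexp (0.22, adjusted p = 0.384). The others were uc.481- (1.46 ± 0.46), uc.265+ (1.41 ± 0.35) and uc.421+ (1.41 ± 0.15).

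Among the falls in this step, uc.330+ went from 67.9%, 76.3% and 69% at day 2 to 32.3%, 33.1% and 28.7% at day 5, with no overlap, on the 4 arrays of slide 2 as well. The change was -1.18 ± 0.16 (limma, adjusted p = 0.00025), and -1.15 with the slide (adjusted p = 0.00394). The probe uc.38- fell by 1.46 (SE 0.34) and was called with the slide as well (-1.11, adjusted p = 0.0342). The falls of uc.10- (-1.38 ± 0.47) and uc.239+ (-1.26 ± 0.42) were not. The call of uc.10- needed array 3 of proliferation, all of day 2, array 3 of day 5 and all of day 8 (limma, adjusted p = 0.0513 to 0.159 when each was omitted). That of uc.239+ needed array 2 of proliferation and arrays 1 and 3 of each later stage (0.0558 to 0.16). The call of uc.481-, which entered the test through day 5 alone, needed every day 5 array (0.0604 to 0.0969) and ended with normexp (0.13, adjusted p = 0.613). With normexp the falls of uc.38- (-0.37), uc.10- (-0.72) and uc.239+ (-0.21) were not called either.

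Between day 5 and day 8, 18 of 158 probes (11.4%) differed, 5 higher and 13 lower. Of all tested probes, 12.6% were called, 5.89% higher and 6.72% lower. These counts rested on single arrays. Without day 5 array 3 there were 5 higher and 47 lower, against 4.96% and 9.82% of all tested probes. Without day 5 array 1 there were 2 and 1 (2.56% and 2.33% of all), and without day 5 array 2 there were 5 and 3 (3.61% each). Without day 8 array 1, 2 or 3 there were 3 higher each time (2.94%, 4.05% and 3.1% of all), with 5, 4 and 4 lower (3.5%, 3.68% and 3.26%). With normexp 5 were higher and 0 lower by limma (4.44% and 3.56% of all tested probes), with quantile normalization 5 and 11 (6.95% and 5.23%), and with the slide in the fit 6 and 1, where 3.24% of all tested probes were called (1.91% and 1.33%). At an unadjusted p under 0.05 by limma, 50 of the 158 passed in this step, 37 of them lower. Of all tested probes, 29.2% passed, 16.8% as lower. With normexp 21 passed, 10 of them lower, against 23.6% and 11.1% of all tested probes. Only uc.456+ and uc.34+, both higher, were called in the plain and the slide fit.

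The probe uc.34+ rose by 1.17 ± 0.25 between day 5 and day 8 (limma, adjusted p = 0.0148), from 1.21%, 1.26% and 1.30% to 2.72%, 3.10% and 2.70%, and by 1.13 with the slide (adjusted p = 0.0191), with no call under normexp (0.45, adjusted p = 0.0895). Its arrays of both stages did not overlap, and the call ended on omission of array 1 of day 5 (adjusted p = 0.0559). The probe uc.101- rose by 0.93 ± 0.17 (adjusted p = 0.00859), from 43.4% to 44.5% on the day 5 arrays to 73.5% to 91.6% at day 8, without a call in the slide fit (adjusted p = 0.0948). The 4 largest falls among called members in this step were uc.459- (-1.70 ± 0.29), uc.47+ (-1.61 ± 0.38), uc.112- (-1.35 ± 0.30) and uc.163- (-1.35 ± 0.34), none of them called with the slide or with normexp (-0.23, -0.01, -0.13 and -0.34). At day 8 no array was above background for uc.47+, a fall of at least 1.97-fold. The call of uc.47+ needed arrays 1 and 2 of day 5 and all of day 8 (0.0555 to 0.0899 when each was omitted), that of uc.112- needed 1 and 2 of day 5 and 2 of day 8 (0.0548 to 0.0732), and that of uc.163- needed 1 of day 5 and 1 and 2 of day 8 (0.057 to 0.104).

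Of the 481 elements, 25 (5.2%) had both strands tested, 55 the + strand only, 53 the - strand only and 348 neither. The levels of the 2 probes of an element are not compared here, since probes differ in brightness for the same amount of RNA. At day 8 both strands were called for 6 of the 25 elements, always in the same direction: higher for uc.188 and uc.246 and lower for uc.418, uc.47, uc.141 and uc.419. In 11 elements 1 strand was called and in 8 neither, and 20 of 25 pairs had changes of the same sign. At day 5, 5 elements had both strands called, 2 higher and 3 in opposite directions, and 18 of 25 pairs shared the sign. At day 2, 4 had both called, 2 lower and 2 in opposite directions, and 11 of 25 shared it. With the slide in the fit, 12, 14 and 16 of 25 pairs shared the sign at days 2, 5 and 8. How often probes of different elements share a sign or a call was not tested.

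For uc.418 the day 8 changes were -1.45 ± 0.26 on the - probe and -1.56 ± 0.23 on the + probe (limma, adjusted p = 0.000763 and 0.000184). The - probe stood at 243.5%, 291.6% and 184.8% in proliferation and 71.3%, 115.2% and 78.9% at day 8, and the + probe at 2.64%, 3.48% and 3.97% and then 1.48%, 1.16% and 0.822%. Neither strand had overlapping arrays between these stages, and neither day 8 call stood with the slide (adjusted p = 0.106 and 0.177). For uc.141 the + probe changed by -1.19 ± 0.29, for uc.419 the strands changed by -1.11 ± 0.38 (+) and -0.78 ± 0.20 (-), for uc.47 the + probe by -1.34 ± 0.38 (at least 1.64-fold lower) and for uc.246 the + probe by 0.57 ± 0.18.

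With normexp the + probes of uc.141, uc.419 and uc.47 changed sign, to 0.25, 0.03 and 0.31, and that of uc.418 stood at -0.04. No such change of sign was called (limma, adjusted p = 0.189, 0.896 and 0.101). In the slide fit no element had both strands called at day 2 or day 8 by limma, and at day 5 uc.188 had both higher and uc.45 opposite calls. The call of uc.419+ needed arrays 1 and 2 of proliferation and all of day 8 (limma, adjusted p = 0.0552 to 0.0753 when each was omitted), and that of uc.246+ needed 2 and 3 of proliferation and 3 of day 8 (0.0627 to 0.0788).

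Opposite calls on the 2 strands of an element at day 5 fell on uc.45, uc.75 and uc.154, which were singled out for this after their values were seen. The uc.45 element is the clearest case, since both strands were called in the slide fit as well. Its + probe went from 5.13%, 7.13% and 4.68% in proliferation to 8.87%, 9.14% and 7.53% at day 5, a rise of 0.61 ± 0.18 (limma, adjusted p = 0.017; 1.05 with the slide, adjusted p = 0.0466). Its - probe fell by 0.87, as above, and neither strand had overlapping arrays. Both calls of this element at day 5 stood under all 6 settings with the same tested probes.

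For uc.75 the + probe rose by 0.86 ± 0.13 at day 5 while the - probe went from 432.7%, 345.4% and 340% to 189.2%, 258.1% and 191.6%, a change of -0.81 ± 0.20 (limma, adjusted p = 0.006). The latter was not called in the slide fit (adjusted p = 0.213). For uc.154 the + probe changed by -0.72 ± 0.17 and the - probe by 0.43 ± 0.13 (adjusted p = 0.00571 and 0.0218), and neither was called in the slide fit. Whether the transcripts on the 2 strands are separate RNAs or part of longer ones was not tested.

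**Figure D5:**
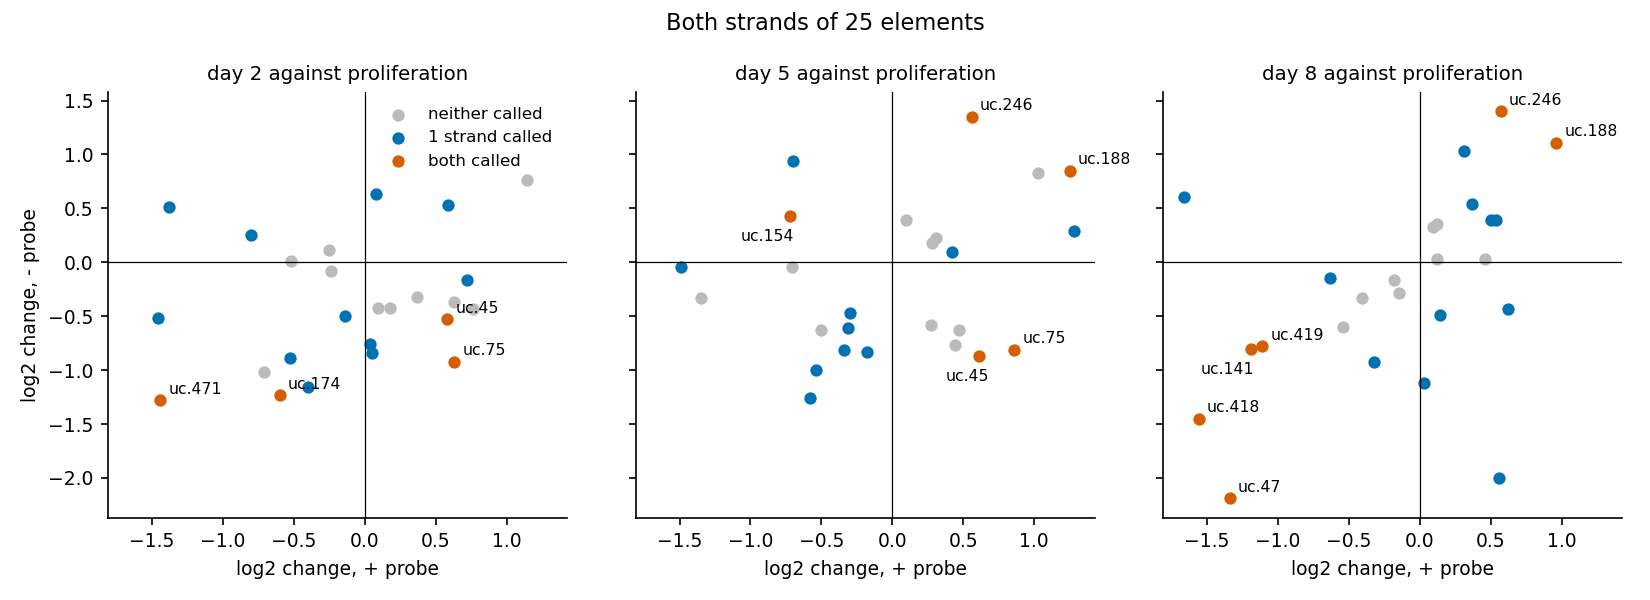
Log2 change of the + probe (horizontal axis) against that of the - probe (vertical axis) for the 25 elements with both strands tested, at days 2, 5 and 8 against proliferation. Elements with both strands called are named; at day 8 all 6 lie in the quadrants of equal sign, and at day 5 uc.45, uc.75 and uc.154 lie in those of opposite sign.

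Of 15 elements studied elsewhere as transcribed ultraconserved regions, among them uc.8, uc.63, uc.73 and uc.160, all were on the array with 30 probes, and 4 probes were tested. The + probe of the element in the gene of the O-GlcNAc transferase Ogt was the steadiest of the members above background on all 12 arrays, between 2.16% and 2.81% throughout, with a day 8 change of 0.07 ± 0.15 (limma, adjusted p = 0.689). It was called higher there with normexp (0.50, adjusted p = 0.00841) and with quantile normalization (0.49, adjusted p = 0.0415). The + probe of the element in the gene of the RNA-binding protein Pcbp2 ranged from 1.71% to 3.32%, and its change of -0.42 ± 0.20 had no call (adjusted p = 0.101). It became 0.25 with normexp, also without a call (adjusted p = 0.199).

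The probe uc.63-, of an element in the nuclear export gene Xpo1, measured 3.35%, 4.13% and 1.65% in proliferation and 0.805%, 1.09% and 0.894% at day 8, without overlap. The change of -1.62 ± 0.60 was called (limma, adjusted p = 0.0403) but turned to 0.61 with the slide in the fit, without a call (adjusted p = 0.649). It was not called with normexp (-0.08) or quantile normalization (-1.15) either. It needed arrays 1 and 2 of proliferation, 1 and 3 of day 2 and all of day 8 (adjusted p = 0.0502 to 0.124 when each was omitted). The remaining tested probe of the list, on a - strand, had a change of -0.83 ± 0.38 without a call (adjusted p = 0.0834), and 0.58 with the slide. Outside this list, uc.189+, of an element in the splicing factor gene Srsf3, was picked after its values were seen. It measured 1.84%, 2.04% and 1.89% at day 2 and 2.88%, 4.21% and 2.54% at day 5, a rise of 0.70 ± 0.17 (adjusted p = 0.0102) that was called with the slide (0.82, adjusted p = 0.0156), while uc.189- was above background on no array.

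Of the 104 probes above background on all 12 arrays, which belong to 90 elements, 58 were called by the F test and 46 were not, and of all probes above background on all 12 arrays 67.1% were called. At day 8, 14 of the 104 were higher and 32 lower, against 25.6% and 30.1% of all such probes. In the slide fit the F test called 24 (30.7% of all such probes), and at day 8 there were 5 higher and 4 lower (8.65% and 7.98%). In these 104 the 2 strands were equally frequent, 52 each, and 14 elements had both. A missing call does not show that a probe did not change.

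A list of 29 genes for RNA-binding and splicing proteins known to hold exonic ultraconserved elements had more falls than rises at the mRNA level. Of 27 tested, 0 were higher and 15 lower at day 2, 2 and 15 at day 5, and 3 and 13 at day 8, by limma, with medians of -0.60, -0.53 and -0.41 against 0.07, -0.02 and -0.11 over all tested probes. Over all tested probes, 18.3% were higher and 12.2% lower at day 2, 23.7% and 23.8% at day 5, and 25.4% and 29.4% at day 8. With normexp the counts were 0 and 14, 2 and 13, and 3 and 10. With the slide they were smaller, 0 and 9, 0 and 9, and 0 and 3, where 5.77%, 10.3% and 7.6% of all tested probes were lower. The largest day 2 falls were the nuclear matrix protein Matr3 (-1.72 ± 0.24) and the splicing factors Srsf1 (-1.27 ± 0.20) and Srsf3 (-1.15 ± 0.14). The helicase Ddx5 was among those higher at day 8 (0.88 ± 0.14).

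A second list held 33 transcription factor genes known to lie beside elements. Of 25 tested, 5 were higher and 3 lower at day 2, 8 and 5 at day 5, and 9 and 7 at day 8 by limma, beside the shares of all tested probes given above. With the slide the counts were 1 and 2, 7 and 2, and 7 and 2. The day 2 rises also numbered 1 when the percentile was taken over probes detected on all arrays. The eye and forebrain regulator Pax6 had a day 8 change of 2.40 ± 0.16, and Tcf4 one of 2.09 ± 0.25. Dlx1 fell, by -1.57 ± 0.17. The host genes named for a few elements above are background knowledge. For the 962 probes as a whole the neighbouring gene is not given in the sources used here, so no member was set against its neighbour.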

How the data were processed

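Each file held 1 array's scanner output. Per the submitters' processing notes, scans were read by Feature Extraction (Agilent, version 10.5.1.1). The values used are the deposited processed signals, an intensity after the software's background treatment, per the file headers. The background flags are other columns of the same deposited files. The array header names mouse build mm9, and no coordinates were used.

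Members and lists were chosen with earlier results of these data known. Control and negative-probe spots were left out. The log2 of the intensity, which the authors deposited without a stated normalization between arrays, was taken, spots of a probe were averaged without population outliers, and each array's 75th percentile was subtracted. Non-uniform spots were kept. Probes with the flag for signal well above background on every array of 1 stage or more were tested (22954 of 37246), all in a single limma fit of stage means over 12 arrays (lmFit and eBayes, limma 3.58.1, R 4.3.3), with Benjamini-Hochberg adjustment over all tested probes and a threshold of 0.05. The ± values are standard errors of log2 changes. Precision is limited by there being 3 arrays a stage.

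The alternatives were normexp correction (offset 50) on the median signals, in place of mean signals, which were planned but have no column; quantile normalization; the percentile over probes detected on all arrays; other filters; slide or replicate number in the fit; non-uniform spots left out; and each array left out. Leaving out an array of a stage kept the same tested probes. The fit was tested on simulated data.

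Named members were the 8 largest rises and falls at each later stage against proliferation and the 4 largest in each later step among called ones, members called the same way at all later stages (up to 10), elements with both strands called at day 8, and the published list, most of whose numbers are not printed; exceptions are marked. Gene names came through RefSeq accessions (GRCm38.p6 table, 22216 probes), with the brightest tested probe per gene. Files were read through data.table (R package, 1.17.8), and figures were made in Python 3.11.15 by matplotlib 3.10.9.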

Additional observations from a re-analysis of the deposited data

How the results depend on the processing

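Detection depends on the rule: 16.4% of the members passed as reported, 27.4% with the flag on 2 of 3 arrays of a stage, and 36.3% with the software's weaker flag for signal over background. Calls in the 5 comparisons, in the order day 2, day 5 and day 8 against proliferation, day 5 against day 2 and day 8 against day 5, were 35, 43, 62, 20 and 18, with 80 by the F test. With the slide in the fit they were 18, 19, 14, 15 and 7, and 34. With normexp the last 2 steps gave 9 and 5. Without a filter on dim probes the third comparison gave 112, 14 higher and 98 lower, against 13.9% and 19.6% of all probes. Without non-uniform spots 134 members remained in the test, and the counts were 22, 26, 44, 9 and 10. At day 8 these were 10 higher and 34 lower, against 23.6% and 26.4% of all probes then tested. The cause of these differences was not tested, beside fewer or more probes in the test for the last pair. Leaving out 1 array gave 24 to 44, 35 to 61, 44 to 72, 16 to 23 and 3 to 52, and 59 to 104 by the F test. Beside the lowest counts, 13.6% and 8.56%, 21% and 21.2%, and 22.9% and 25.9% of all tested probes were higher and lower against proliferation. In the later steps they were 11.6% and 13.1%, and 2.56% and 2.33%. Beside the highest counts they were 19.4% and 12.4%, 24% and 21%, 25.4% and 31.3%, 12.1% and 14.6%, and 4.96% and 9.82%. Such shares were not computed for the F test with 1 array left out.

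Of 80 named changes, the side of the threshold and the direction held for 72 with quantile normalization, 51 with normexp, 62 with no filter and 31 with the slide. At day 8, uc.141+ (0.25), uc.239+ (0.03), the + probe of the element in Pcbp2 (0.25), uc.419+ (0.03), uc.47+ (0.31) and uc.47- (0.26) reversed with normexp, and the - probe of the published list without a call (0.58), uc.271+ (0.86), uc.340- (0.21), uc.47- (1.66) and uc.63- (0.61) with the slide. No reversed change was called (limma, adjusted p = 0.101 to 0.896 with normexp and 0.334 to 0.926 with the slide).

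Replicate numbers showed no clear pairing of the arrays: deviations of same-numbered arrays correlated at -0.16 to 0.24 (median 0.01), over 0.1 in 5 of 18 pairs. Those of differently numbered arrays correlated at -0.26 to 0.22 (median -0.01), over 0.1 in 6 of 36 pairs. Within day 2 and day 5 the deviations also hold the difference between slides, so they do not settle whether arrays were paired. With the replicate number as a block, calls were 10 higher and 29 lower at day 2, 12 and 29 at day 5, and 18 and 48 at day 8. Of all tested probes, 17.4% and 12%, 23.5% and 23.7%, and 24.9% and 29.4% were then called. In this fit 77 of 80 named changes, some of them without a call as reported, kept their side of the threshold and their direction. Most members are dim, so the distance from background limits them.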
